A study of Homo sapiens with 8 samples.

Results

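The genes described here are the protein-coding genes of chromosome 19 whose symbol starts with ZNF, called here the zinc finger genes of that chromosome. Another 15 zinc finger genes there, with symbols starting with ZFP, ZSCAN, ZIM, ZIK or ZKSCAN, are not members and stand among the other genes of chromosome 19. GENCODE release 44, lifted to GRCh37, gave 249 members among 20175 protein-coding genes. MBD-seq, in which sheared DNA is captured with the methyl-CpG-binding domain of MBD2 and sequenced, had been done on 8 untreated neuroblastoma (NB) cell lines, established cultures from this childhood tumor of the sympathetic nervous system. The MYCN amplified (MNA) group, whose lines carry extra copies of the MYCN oncogene, held N206, LAN-2, IMR-32 and CHP-902R. The single copy group held SK-N-AS, SJNB-1, CLB-GA and SH-SY5Y. With 1 sample per line, the 4 lines of a group serve as its replicates, and any other difference between the lines cannot be told apart from MYCN status. The authors called peaks, regions in which captured fragments pile up, in each line separately.

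Zinc finger proteins of the C2H2 type bind DNA through a row of fingers, each holding a zinc ion between cysteines and histidines, and many also carry a KRAB domain that recruits the corepressor TRIM28 and the histone methyltransferase SETDB1. Many silence transposable elements, and the genes stand in tandem clusters on chromosome 19 that arose by repeated duplication. The whole row of fingers is usually encoded by a single, long last exon. The last exons of these genes are known to carry DNA methylation and histone H3 lysine 9 trimethylation in many cell types, whereas promoters of several members gain methylation in tumors.

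For each member and line, a peak was sought in 3 windows: the promoter window, which reached 1500 bp before and 1000 bp behind each annotated transcription start site (TSS), the gene body, and the last exon of the canonical transcript. A shared stretch of 1 bp was enough for a peak to count. Beside the count of genes, the cover is given, that is, the percent of the bp of all windows of a set that lies under peaks. Members had a median of 4 exons and 5 TSS, and their last exon was 3293 bp long at the median, against 725 bp in the 1231 other protein-coding genes of chromosome 19 and 2882 bp in the 267 ZNF genes of other chromosomes.

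The lists held 70816 (SJNB-1) to 112412 (LAN-2) peaks, of which 1947 to 2511 lay on chromosome 19. Reads are not counted in them, which leaves the depth of a peak unknown, and the lack of a peak does not show that a window was unmethylated. Within 1 Mb of MYCN, 8.68% to 19.8% of the bp lay under peaks in the MNA lines and 1.87% to 4.76% in the single copy lines, so the groups did not overlap in this neighbourhood and the lines labelled as amplified were higher. Along chromosome 19, 2 lines stood apart and are described by themselves below, while means over 8 lines include both. IMR-32 had over 2 times the median cover of the 8 lines in every 250 kb window from 57.5 Mb to the end of the chromosome, and CHP-902R was the lowest line in every 2 Mb window from 38 Mb to the end.

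Before the counts, 3 sequences are shown as examples of last exons with and without peaks, since they differ in CpG content. ZNF575 and ZNF837 had a last exon peak in all 8 lines, and the coding stretches below lay under a peak in each of them. ZNF208, with 19 finger linkers in its last exon, had a last exon peak in no line. All are from GRCh37 and read 5′ to 3′ on the coding strand. In the first pair, CpG sites, the bases that methylation and the capture depend on, are in capitals. ZNF575 is on the plus strand at chr19:44039327-44039626 (300 bp, 26 CpG sites), and ZNF837 on the minus strand at chr19:58879107-58879305 (199 bp, 30 CpG sites).
ZNF575: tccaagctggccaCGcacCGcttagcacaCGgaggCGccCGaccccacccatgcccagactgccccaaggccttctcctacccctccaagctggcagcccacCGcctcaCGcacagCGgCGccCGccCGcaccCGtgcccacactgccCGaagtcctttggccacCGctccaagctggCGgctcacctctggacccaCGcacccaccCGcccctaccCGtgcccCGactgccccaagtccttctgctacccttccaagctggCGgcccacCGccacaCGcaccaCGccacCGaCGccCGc
ZNF837: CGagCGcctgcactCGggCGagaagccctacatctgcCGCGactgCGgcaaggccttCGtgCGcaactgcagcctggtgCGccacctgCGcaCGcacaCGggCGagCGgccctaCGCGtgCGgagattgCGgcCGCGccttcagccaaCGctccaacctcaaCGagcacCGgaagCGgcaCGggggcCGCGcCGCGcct

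The stretch of ZNF208, on the minus strand at chr19:22155583-22155784 (202 bp), comes from its row of fingers. It held 0 CpG sites. Its capitals mark 3 copies of the linker, the conserved spacer between neighbouring fingers, searched on the coding strand only as a fixed row of codons, with the third base of each left free.
ZNF208: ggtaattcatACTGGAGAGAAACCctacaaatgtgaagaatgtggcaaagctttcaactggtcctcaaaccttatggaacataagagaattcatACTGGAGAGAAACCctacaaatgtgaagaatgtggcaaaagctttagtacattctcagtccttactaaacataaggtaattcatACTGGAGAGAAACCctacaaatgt
The motif stood in the last exon of 212 of 249 members (85.1%) and of 18 of 1231 other genes of chromosome 19 (1.46%).

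A last exon peak was found in 40 to 58 of the 249 members per line, 51.4 ± 7.21 on average (SD, n = 8 lines). Of the MNA lines N206 had 51, LAN-2 57, IMR-32 58 and CHP-902R 41, and of the single copy lines SK-N-AS 40, SJNB-1 52, SH-SY5Y 54 and CLB-GA 58. The MYCN groups overlapped, with means of 51.8 ± 7.80 (MNA) and 51 ± 7.75 (single copy; SD, n = 4 each). Over the lines, 139 members (55.8%) had a last exon peak in at least 1 line and 45 (18.1%) in at least 4, while 110 (44.2%) had none in any line. Of all protein-coding genes, with shorter last exons, it was 43.3%, 13.8% and 56.7%. As a share, members (20.6% ± 2.90 per line) lay below the ZNF genes of other chromosomes (26.5% ± 3.14), and 16.1% to 23.3% of members stood beside 14.4% to 20.5% of the other genes of chromosome 19, whose last exons are far shorter.

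The cover takes this length into account. Peaks covered 4.68% ± 1.16 of the members' last exon bp (SD, n = 8), from 3.01% in CHP-902R to 6.65% in IMR-32, and 8.13% to 11.4% in the other genes of chromosome 19. The difference was -5.45 ± 0.819 percentage points, and members were lower in 8 of 8 lines. They were also lower than the ZNF genes of other chromosomes in 8 of 8 lines, by -2.62 ± 1.39 percentage points. Over all protein-coding genes the last exon cover was 4.95% ± 0.586, near that of the members. Members lay above this set in IMR-32, CLB-GA and SJNB-1 and below it in the other lines. In the coding part of the last exon, which holds the fingers, and outside promoter windows, the cover was 7.56% ± 2.24 in members, 24.95% ± 3.56 in the other genes of chromosome 19 and 16.5% ± 1.45 in ZNF genes elsewhere. The part of the last exon that is not coding had 2.71% ± 0.642 in members, and the introns 2.54% ± 0.469.

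**Figure D1:**
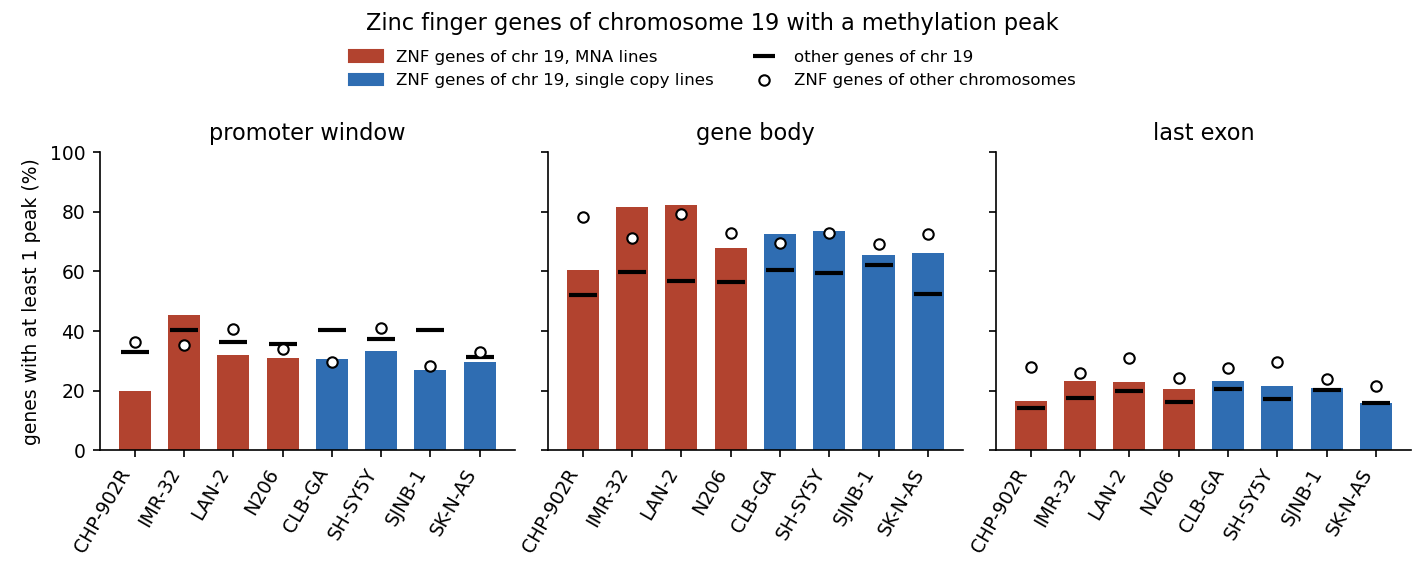
Percent of genes with at least 1 peak (vertical axis) in the promoter window, the gene body and the last exon, by cell line. Bars are the 249 zinc finger genes of chromosome 19, dashes the other protein-coding genes of that chromosome and circles the ZNF genes of other chromosomes. In the promoter window CHP-902R (20.1%) and IMR-32 (45.4%) are the lowest and the highest bar, and in the last exon all bars lie between 16.1% and 23.3%.

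Within 5000 bp of the canonical TSS, the members' cover was lowest right at it, at 2.17% in the 250 bp upstream (0.463% to 8.57% over the lines), and it rose to 5.19% between 1250 and 1500 bp upstream and 5.42% from 1000 to 1250 bp downstream. Behind the start of the last exon it climbed from 3.28% in the 250 bp before it to 7.97% between 500 and 750 bp (4.57% to 12.5% over the lines) and was back at 2.53% between 2250 and 2500 bp. In the other genes of chromosome 19 the highest value stood at the exon's start (13.3% in the first 250 bp). ZNF genes of other chromosomes shared the members' position of the highest value, between 500 and 750 bp, at 16.3% (14.4% to 18.2%).

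**Figure D2:**
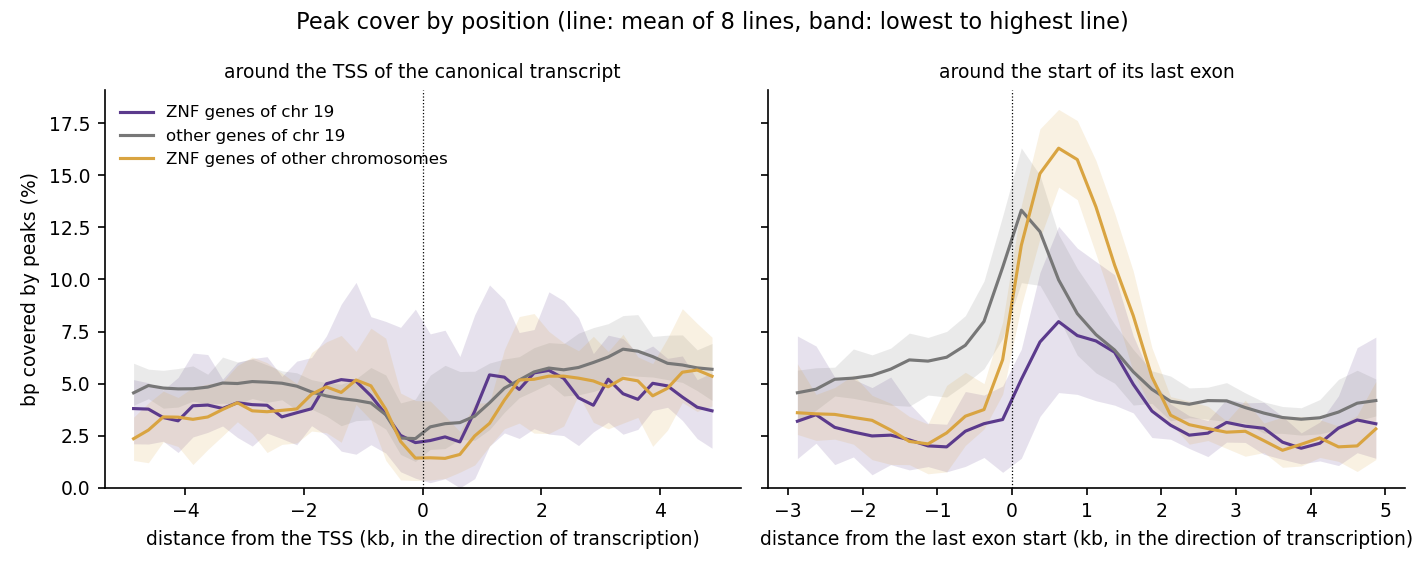
Percent of bp under peaks (vertical axis) in 250 bp steps by distance in kb from the TSS of the canonical transcript (left) and from the start of its last exon (right), for 3 sets of genes. Lines are means of 8 cell lines and bands run from the lowest to the highest line. All sets dip at the TSS, and in both ZNF sets the cover is highest 500 to 750 bp into the last exon (7.97% and 16.3%).

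In the coding part of the last exon, CpG content differed between the sets in the same order as the cover. The coding part of the members' last exons had a median of 1.10 CpG sites per 100 bp, against 1.43 in ZNF genes elsewhere and 4.74 in the other genes of chromosome 19. Over the whole last exon the medians of members (0.975) and ZNF genes elsewhere (0.958) were close and in the other order, although the members' cover was the lower one. When members were ordered by this content and cut into 4 groups of 61 or 62 genes, a last exon peak was present in 6.85%, 12.3%, 14.8% and 49.2% of them on average over the lines, and the last exon cover was 0.764%, 1.38%, 2.13% and 15.7%. The step lay at the group with over 1.502 CpG sites per 100 bp. The share with a promoter peak did not follow this order, at 29.4%, 29.7%, 37.3% and 28.4%, whereas the promoter window cover did, at 2.87%, 2.89%, 3.18% and 5.11%.

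At matched CpG content the members were not below the other genes of chromosome 19, apart from the class with the fewest CpG sites, where both were near 0. In coding parts of at least 500 bp with under 1 CpG site per 100 bp, the cover was 0.203% ± 0.192 (107 members) and 0.288% ± 0.815 (16 other genes of chromosome 19). From 1 to 2 sites it was 2.71% ± 2.05 (95 members) beside 1.23% ± 1.19 (25 other genes), and from 2 to 4 sites 24.9% ± 11.3 (16 members) beside 9.78% ± 3.13 (44 other genes). With at least 4 sites it reached 59.7% ± 15.9 in 21 members, 48.2% ± 7.33 in 124 other genes and 55.2% ± 5.38 in 44 ZNF genes elsewhere. In the class from 1 to 2 sites and in that with at least 4, the members exceeded the other genes of chromosome 19 by less than the SD of the members over lines. ZNF genes elsewhere lay above the members from 1 to 2 sites (6.55% ± 2.32, 48 genes) and from 2 to 4 sites (28.0% ± 6.33, 25 genes). Whether CpG content sets the lower cover of the members as a whole was not tested.

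**Figure D3:**
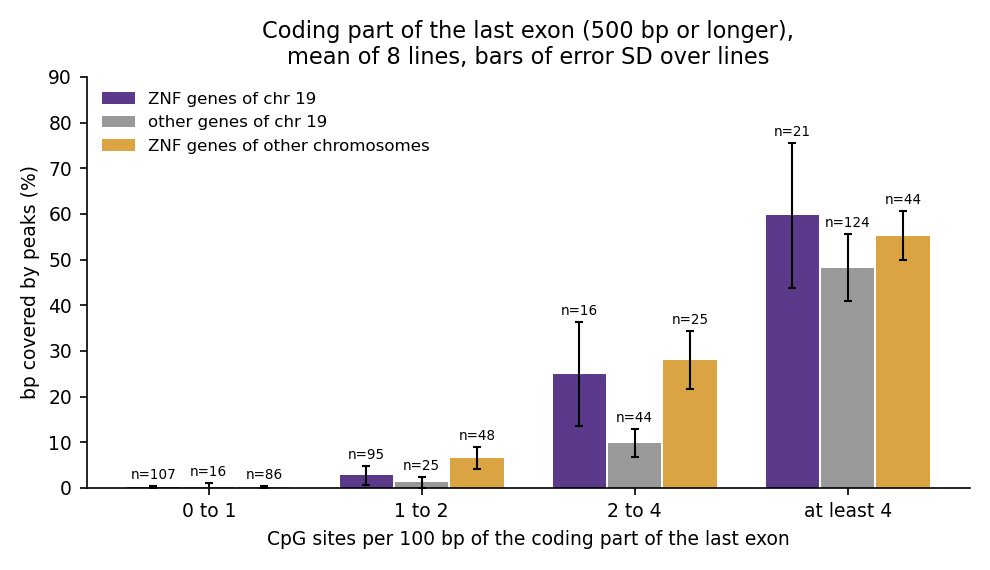
Percent of bp under peaks (vertical axis) in the coding part of last exons of at least 500 bp, by CpG sites per 100 bp, for 3 sets of genes. Bars are means over 8 lines with the SD over lines, and n counts genes. Cover climbs with CpG content in each set, and members reach 59.7% in the highest class.

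Copies of the linker motif went the other way. They do not count fingers, since a finger gene such as ZNF575 has none that fit the pattern. Members without a copy (37 genes) had a last exon cover of 16.6% ± 4.80, those with 1 to 5 copies (83) 4.99% ± 1.21, those with 6 to 10 (92) 2.76% ± 0.957 and those with over 10 (37) 1.95% ± 0.855. In members with more than 1 copy, the span from the first to the last linker had a cover of 4.63% ± 2.28 at 1.41 CpG sites per 100 bp. The rest of the coding part of the last exon, over all members, had 9.88% ± 2.63 at 1.87. It includes the whole coding part of members with 1 copy or none, so these values come partly from different genes. Reads from near-identical copies can be lost in mapping, so the share of 45 bp windows, the length of a read, that occur only once in the genome was computed. It was 91.4% over the members' last exons and 94.1% over those of the other genes of chromosome 19. A last exon peak was found in 11.8% of the 17 members with under 80% unique windows and in 21.3% of the other 232, on average over the lines. The part of uniqueness in the lower cover was not tested.

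Among the members, 7 had a last exon peak in all 8 lines, namely ZNF555, ZNF835, ZNF575, ZNF837, ZNF526, ZNF324 and ZNF317, which is 2.81% of members beside 1.76% of all protein-coding genes. Another 7 had one in 7 lines, namely ZNF358, ZNF524, ZNF574, ZNF101, ZNF576, ZNF579 and ZNF446. ZNF358 lacked a peak in SH-SY5Y, and ZNF524 and ZNF574 lacked one in CHP-902R. In 12 of these 14 the coding part held between 3.98 (ZNF574) and 11.2 (ZNF837) CpG sites per 100 bp. ZNF101 had 2.06. ZNF555 had 1.72, and the 84 bp that lay under its peak in all 8 lines (chr19:2859223-2859306) were in the part of the exon that is not coding.

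The MACS score of a peak, which rises as its p-value falls, is given for ZNF575 as an example. It was 105 in N206, 185 in LAN-2, 64.8 in IMR-32 and 101 in CHP-902R, and in the single copy lines CLB-GA had 172, SK-N-AS 86.6, SH-SY5Y 79.6 and SJNB-1 86.1. LAN-2 and CLB-GA were high and came from both groups. Each of these peaks covered chr19:44039224-44039730, a stretch of 507 bp within the coding part of the last exon. For ZNF837 the 8 scores ran from 64.01 in SH-SY5Y to 165 in IMR-32 and the peaks shared 277 bp. ZNF526 peaks shared 408 bp and ZNF324 peaks 390 bp. No base of ZNF835 or ZNF317 lay under a peak in all 8 lines, although 7 lines shared one in both.

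The last exon of ZNF431 showed the opposite case. Its peaks, in 6 lines, lay at 4 different places of an exon of 13431 bp, and only IMR-32, LAN-2 and SJNB-1 overlapped. Over all members with a last exon peak in at least 4 lines, 28 of 45 (62.2%) had a base shared by all lines with a peak. It was 162 of 197 (82.2%) in the other genes of chromosome 19, whose last exons are far shorter (median 725 bp against 3293 bp). In ZNF genes of other chromosomes, with a median of 2882 bp, it was 53 of 71 (74.6%). The part of exon length in these shares was not tested.

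Promoter peaks were found in 77 members in N206, 80 in LAN-2, 113 in IMR-32 and 50 in CHP-902R, and for the single copy lines in 76 in CLB-GA, 74 in SK-N-AS, 83 in SH-SY5Y and 67 in SJNB-1. The MNA lines (80 ± 25.8 members) spanned a wider range than the single copy lines (75 ± 6.58; SD, n = 4 each), and the 4 single copy values lay inside the range of the MNA lines. In at least 1 line, 201 members (80.7%) had a promoter peak, a share near that of all protein-coding genes (73.9%). In at least 4 lines it was 72 members (28.9%), against 39.5% of all protein-coding genes, and only ZNF324 had one in all 8 lines (0.402% of members, 6.11% of all). Promoter windows of 65 members overlapped that of another protein-coding gene, so that 1 peak can stand for 2 genes.

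The cover of promoter windows was 3.507% ± 1.499 (SD, n = 8) in members and 5.35% ± 0.700 in the other genes of chromosome 19. Members were lower in 7 of 8 lines, by -1.84 ± 1.26 percentage points on average, and higher only in IMR-32 (6.90% against 5.85%). This difference depended on the set of TSS. With the TSS of the canonical transcript only, the cover was 3.37% ± 2.04 in members and 3.31% ± 0.857 in the others, a difference of 0.0547 ± 1.30 percentage points that was below 0 in 5 of 8 lines. Pairs of a member and a line with a promoter peak numbered 620 of 1992, and 147 of these (23.7%) also had a last exon peak, which was present in 20.6% of all pairs.

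Beside ZNF324, ZNF100, ZNF524, ZNF461, ZNF331, ZNF302, ZNF875, ZNF383, ZNF568, ZNF585B, ZNF101 and ZNF611 had a promoter peak in 7 lines each. The peaks of ZNF324 (in 7 of its 8 lines) and ZNF524 lay at their last exons, near a downstream TSS, and were counted in both windows. ZNF524 had the same peaks in both windows in all 7 lines, with scores of 77.5 (LAN-2) to 162 (SH-SY5Y). The peaks of ZNF100 lay at 1 place, an internal TSS, and all 7 shared a base there, with scores from 91.4 in N206 to 247 in LAN-2 and none in IMR-32.

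The other genes differed in how far the lines agreed on a place. For ZNF461, ZNF331, ZNF383 and ZNF101, 6 of the 7 lines shared a base, for ZNF568 5 and for ZNF302 4. For ZNF585B and ZNF875 it was at most 3, and for ZNF611 at most 2. In ZNF331, an imprinted gene, the strongest peaks still lay at 3 places, the first used by CHP-902R, CLB-GA and SH-SY5Y, the second by IMR-32 and LAN-2 and the third by N206 and SJNB-1. ZNF383 and ZNF585B are neighbours, and their strongest peaks in IMR-32 and SH-SY5Y were the same peaks. Over the 72 members with a promoter peak in at least 4 lines, 21 (29.2%) had a base shared by all lines with a peak, close to the 28.8% of the other genes of chromosome 19.

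A gene body peak was found in 151 (CHP-902R) to 205 (LAN-2) members, 177.5 ± 19.2 on average (SD, n = 8). In at least 1 line, 245 members (98.4%) had one, against 88.3% of all protein-coding genes, and 59 (23.7%) had one in all 8 lines, against 32.8% of all protein-coding genes. ZNF799 and ZNF471 were the members without a peak in any of the 3 windows in any line. ZNF471, whose promoter is known to gain methylation in several carcinomas, had 91.7% unique windows in its last exon, and ZNF799 63.3%.

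**Figure D4:**
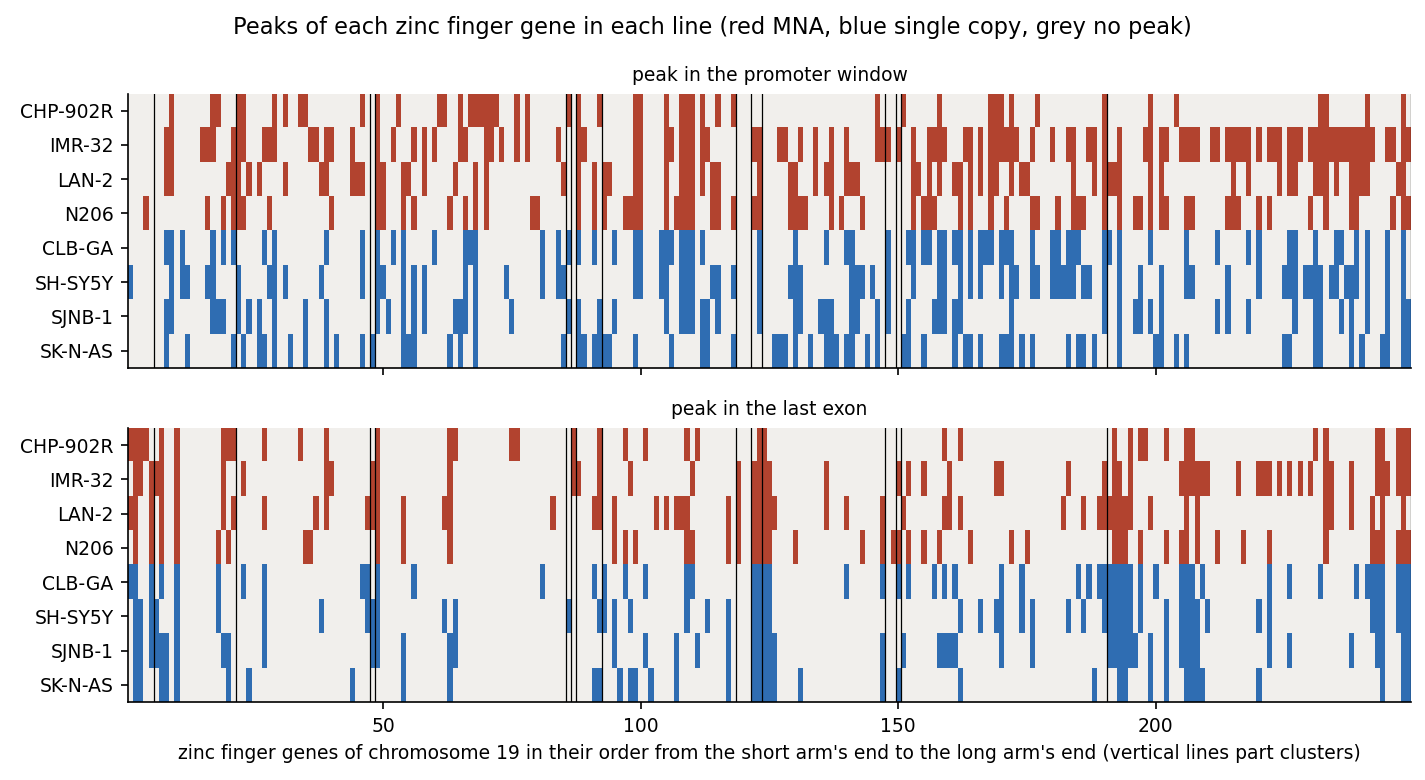
Presence of a peak in the promoter window (top) and the last exon (bottom) for each of the 249 zinc finger genes in chromosomal order (horizontal axis) and each line (rows). Red marks MNA lines, blue single copy lines, grey no peak, and vertical lines part clusters. The last exon columns filled in all 8 lines are the 7 genes named in the text, and the promoter row of IMR-32 fills up at the right end, where 33 of 43 members have a peak.

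The members fell into 16 clusters, cut where neighbouring gene starts were over 1 Mb apart, and the 7 clusters of at least 16 members held 228 of the 249. The cluster from ZNF101 to ZNF254 (37 members, 19.8 to 24.3 Mb), which holds ZNF91 and ZNF208, had the lowest last exon cover of these 7, with 1.19% ± 0.363 and 2 to 5 members with a last exon peak per line. In the cluster from ZNF628 to ZNF446 (59 members, 56.0 to 59.0 Mb) the last exon cover was 9.39% ± 3.86 and 12 to 26 members had a last exon peak. The next cluster upstream, from ZNF175 to ZNF331 (40 members), had 2.04% ± 1.06.

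IMR-32 stood furthest above the other lines at the end of the long arm. On the rest of chromosome 19 it was also the highest line in the members' promoter window cover, at 4.79% against 1.99% to 4.01%. From 57.5 Mb on, 43 members had a promoter window cover of 18.9% in IMR-32. It was 2.81% in N206, 3.04% in LAN-2 and 0.696% in CHP-902R, and among the single copy lines 3.77% in CLB-GA, 2.82% in SK-N-AS, 5.57% in SH-SY5Y and 2.84% in SJNB-1. A promoter peak was found in 33 of these 43 members in IMR-32 and in 4 to 18 of them in the other lines. Last exon cover was 16.6% in IMR-32 and 2.59% to 7.62% in the others. The run was defined by the cover of IMR-32 itself, so these values are a description and no test was made.

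IMR-32 was also the highest line outside the zinc finger genes of this region. In IMR-32, 77.4% of the 31 other genes of this region had a promoter peak, against 19.4% to 38.7% in the other lines, and 8.67% of the bp between genes lay under peaks, against 0.865% to 2.67%. Peaks there were 1012 bp wide on average in IMR-32 and 554 to 715 bp in the others, and their median CpG content was 2.47 sites per 100 bp against 2.71 to 3.56. The part of these in the members' values was not tested, and the number of DNA copies was not analysed here. Among the members outside the region, 80 had a promoter peak in IMR-32, 46 in CHP-902R and 55 to 65 in the other 6 lines.

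**Figure D5:**
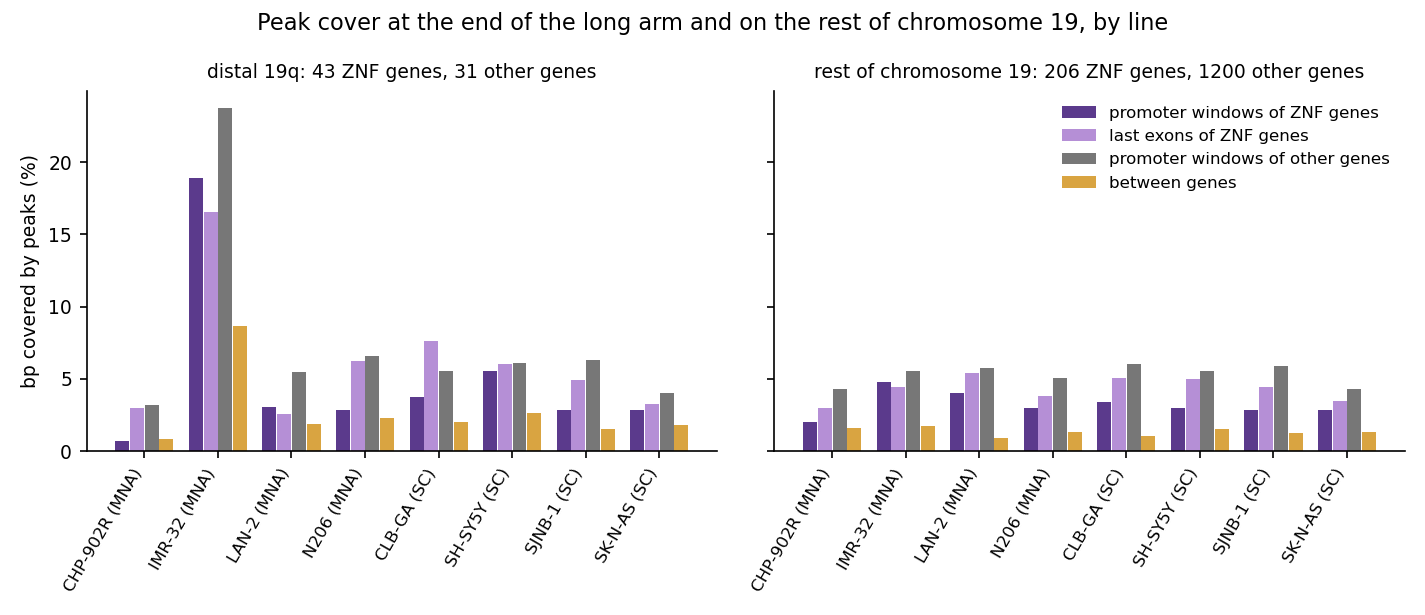
Percent of bp under peaks (vertical axis) in promoter windows and last exons of zinc finger genes, promoter windows of other genes and between genes, by line, for the end of the long arm (left, 43 zinc finger genes) and the rest of chromosome 19 (right). IMR-32 is the highest line in all 4 classes on the left, at 8.67% between genes.

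CHP-902R was low over a longer stretch. This run was defined by the cover of CHP-902R itself, so its low values there are a description and no test was made. From 38 Mb to the end of the chromosome, 17 of 135 members had a promoter peak in CHP-902R and 36 to 73 in the other lines, and a last exon peak was found in 18 against 23 to 40. The bp between genes were covered to 0.605% in CHP-902R and to 1.06% to 2.11% in the others. Before 38 Mb, the promoter count of CHP-902R (33 of 114 members) lay within the range of the other lines (30 to 40). There it was the highest line in last exon cover of members (3.77% against 2.24% to 3.27%), in cover between genes (1.92% against 0.897% to 1.75%) and in number of peaks (1724 against 1214 to 1532).

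These regions also bear on the order of last exons and promoters. Over all members, last exon cover exceeded promoter window cover in 7 of 8 lines, by 1.17 ± 0.745 percentage points, and IMR-32 was the exception at -0.246. This order is not particular to members. Mean last exon and promoter window cover were 10.1% and 5.35% in the other genes of chromosome 19. They were 7.30% and 4.11% in ZNF genes of other chromosomes, and 4.95% and 3.94% over all protein-coding genes. From 38 Mb on, the members' last exon cover exceeded their promoter window cover in 8 of 8 lines, by 2.69 ± 1.17 percentage points. It was 6.34% ± 2.25 in last exons and 3.65% ± 2.17 in promoter windows. Before 38 Mb the members' last exon cover was the lower one in 6 of 8 lines, by -0.482 ± 0.813 percentage points, which is within the spread over lines.

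To ask whether methylation of single members went with MYCN status, members were counted whose window had a peak in all 4 lines of 1 group and in none of the other. For the promoter window, 2 of 249 members did so, ZNF208 and ZNF587, both with peaks in the MNA lines (0.803%), beside 0.198% of the 20175 genes tested. In the gene body it was ZNF208 alone (background 0.0942%) and in the last exon ZNF587 alone (background 0.0843%). No member had peaks in the single copy lines only, where the background was 0.104%, 0.0496% and 0.0347% for the 3 windows. Each of these genes had p = 0.0286 in a two-sided Fisher's exact test, the smallest p that 4 against 4 lines allow. After Benjamini-Hochberg adjustment over all 20175 genes the smallest value was 1, so no gene could pass. At an unadjusted p under 0.05, 2 members were counted for the promoter window and 1 each for the gene body and the last exon.

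ZNF208 (chr19:22115760-22193751, minus strand) had promoter peak scores of 59.1 in N206, 62.7 in LAN-2, 72.5 in IMR-32 and 69.3 in CHP-902R, and no peak in any single copy line in its whole gene body. The 4 peaks did not lie at 1 place. Those of CHP-902R and IMR-32 shared 218 bp that began 194 bp downstream of the canonical TSS, in the first intron. Those of LAN-2 and N206 overlapped each other but neither of the former, so at most 2 lines shared a base. The stretch below, shown because it lay under the peaks of CHP-902R and IMR-32, is chr19:22193334-22193551 on the coding strand, with its 13 CpG sites in capitals. In this promoter window 71.5% of the 45 bp windows were unique.
CHP-902R and IMR-32: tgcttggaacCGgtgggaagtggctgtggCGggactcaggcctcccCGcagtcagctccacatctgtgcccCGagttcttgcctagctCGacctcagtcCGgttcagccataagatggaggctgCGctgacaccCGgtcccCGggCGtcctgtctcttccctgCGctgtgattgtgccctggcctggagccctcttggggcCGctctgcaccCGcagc

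ZNF587 (chr19:58361227-58376485, plus strand) lies in the region at the end of the long arm where IMR-32 was high. Its strongest promoter peaks had scores of 62.7 in N206, 50.6 in LAN-2, 135 in IMR-32 and 57.9 in CHP-902R and stood at different TSS, with at most 2 lines on the same base. Its last exon peaks, with scores of 65.2, 91.3, 82.6 and 62.5 in the same order, lay between 58373998 and 58375195 bp, and at most 3 lines shared a base. In the gene body as a whole, 2 single copy lines had a peak as well. Only 70.7% of the 45 bp windows of its last exon were unique.

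Both calls rested on weak peaks. When only peaks scoring 100 or more were kept, or with equal numbers of peaks per line, 0 members separated the groups by their promoter window. ZNF208 alone was left with a peak midpoint in the window, with an overlap of 200 bp or with the canonical TSS, and ZNF587 alone with a window to 500 bp downstream.

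Differences of at least 3 lines between the groups were about as frequent among members as among all genes in the promoter window. There, 5 members (2.01%) had 3 or more MNA lines above the single copy lines and 3 members (1.20%) the reverse, against 2.02% and 0.942% of all protein-coding genes. In the gene body, 7 members (2.81%) had 3 or more MNA lines above and 0 the reverse, against 1.33% and 0.654%, and for the last exon the counts were 3 (1.20%) and 0, against 0.872% and 0.530%.

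Of 7 members whose promoters are known to be methylated in other tumors (ZNF132, ZNF154, ZNF177, ZNF331, ZNF471, ZNF582 and ZNF671), 5 had a promoter peak in at least 1 line. Of all protein-coding genes 73.9% had one. The median over the list was 2 lines, as over all genes. ZNF331 had a promoter peak in 7 lines and ZNF154 and ZNF671 in 5 each. ZNF154 peaks were present in IMR-32, LAN-2, CLB-GA, SH-SY5Y and SK-N-AS, and those of ZNF671 in IMR-32, LAN-2, CLB-GA, SH-SY5Y and SJNB-1, so both came from both groups. ZNF132 had a promoter peak in IMR-32 and N206 and ZNF582 in SK-N-AS only, while ZNF177 and ZNF471 had none.

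The second list held 8 members chosen as repressors of primate repeats or for large finger arrays. Among them were ZNF91 and ZNF93, which silence the SVA and LINE-1 retrotransposons of primates, with ZNF43, ZNF208, ZNF257, ZNF431, ZNF676 and ZNF90. Their copies of the linker motif ranged from 4 (ZNF90) to 19 (ZNF208), beside a median of 6 over all members. All 8 had a promoter peak in at least 1 line, beside 80.7% of all members and 73.9% of all protein-coding genes. The median was 2 lines, as over all genes. A last exon peak was found in ZNF91 (CLB-GA) and ZNF431 (6 lines) and in no other gene of the list. Of all members 44.2% had none in any line, and of all protein-coding genes 56.7%. ZNF91, ZNF93 and ZNF90 had a gene body peak in all 8 lines, as had 23.7% of all members and 32.8% of all protein-coding genes. The list's median for the gene body was 6.5 lines, against 6 over all genes. ZNF257 and ZNF676 had a gene body peak in CHP-902R and IMR-32 only. ZNF274, a KRAB zinc finger protein that brings SETDB1 to the ends of other zinc finger genes, had a promoter peak in IMR-32, LAN-2 and SK-N-AS, a gene body peak in all 8 lines with scores from 67.1 to 151, and no last exon peak.

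The partners through which these proteins act were looked at in a list of 13 genes of silencing and of methylation upkeep. Each had a promoter peak in at least 1 line, beside 73.9% of all protein-coding genes. The median was 5 lines with a promoter peak against 2 over all genes, and none separated the MYCN groups. TRIM28, the corepressor itself, MORC2, a factor of the HUSH silencing pathway, and DNMT1, the maintenance methyltransferase, had one in all 8 lines, and PPHLN1 and TASOR, both HUSH subunits, in 7. SETDB1 had it in 5 lines, the HP1 genes CBX1, CBX3 and CBX5 in 2, 5 and 1, UHRF1 in 3, MPHOSPH8 in 4, DAXX in 2 and ATRX in 1. Promoter scores ran from 51.7 to 77.6 in DNMT1, 54.1 to 121 in MORC2 and 56.7 to 147 in TRIM28, where 50 is the lowest score in the lists. The window takes in every annotated TSS of a gene, so more TSS give a peak more places to be counted. Neither the number of TSS, nor the canonical TSS alone, nor whether the lines shared a place was examined for these genes.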

How the data were processed

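MBD2-captured DNA of the 8 lines was sequenced as paired ends of 45 bp. The authors mapped the reads on GRCh37 with Bowtie 0.12.7 and ran MACS on every line by itself to call peaks, per the submitters' processing notes and the study's methods; options and a control library are not given in the sources used here. The deposited lists give each peak's start, end and score, a MACS value of the authors that rises as the p-value falls and was 50 or more in each list. It was used only to describe or filter peaks. Depth per list is not in the files, so no interval for presence can be given.

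From these, overlap and cover were computed with Python 3.11.15, numpy 2.4.6, numba 0.67.0 and GENCODE release 44; for 3 members without a tagged canonical transcript the longest coding one was used. Per gene, groups were compared by two-sided Fisher's exact test (scipy 1.17.1) with Benjamini-Hochberg adjustment over 20175 genes. This step was tested on simulated data. Only MYCN labels grouped the lines.

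The members and gene lists were chosen with earlier results of these data known. The text names up to 10 members with a promoter or last exon peak in most lines (ties by score rank), separating members, the fixed lists, and up to 5 members without any peak; the members tied with these and what is singled out of ZNF431 were added after their values were seen. The runs of IMR-32 and CHP-902R were also found from the data. Alternatives were other score limits, list lengths, overlaps, windows, TSS and exon sets, and each line left out. The sequence of 1 stretch of ZNF208 is not reported here.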

Additional observations from a re-analysis of the deposited data

Results flagged for a closer look

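Values of single lines were compared with the other 3 lines of their MYCN group by the gap to the nearest line as a part of the group's range. A line lay past Dixon's critical value in 3 of 54 groups of 4 values. Chance gives 1 in 20, a rate that does not hold for tied counts or for places chosen by a line's own cover. The regions defined by the cover of IMR-32 and CHP-902R were not tested as such, but clusters that lie in them or reach into them were. In the cluster from ZNF575 to ZNF296, which lies in the stretch where CHP-902R was low, CHP-902R had 1 member with a promoter peak and the other MNA lines 7 to 8. In the cluster from ZNF557 to ZNF846, CHP-902R had 5 members with a last exon peak and the others 4 each, and in the cluster from ZNF565 to ZNF573, LAN-2 had 26 members with a gene body peak and the others 24 each. In both of these clusters the other lines tied, so any gap would fill the whole range.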

How the results depend on the processing

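Of 118 other settings tried on the counts and covers, 95 kept the value within the limits used (1.5 times for counts, the SD over lines for covers), 22 moved it and 1 changed its sign. The members with a promoter, gene body and last exon peak per line fell from 77.5, 177.5 and 51.4 to 15, 45.5 and 12.1 when only peaks scoring 100 or more were kept, and with the canonical TSS only 43.4 members had a promoter peak. With the same threshold the last exon and promoter differences to the other genes of chromosome 19 were -1.60 and -0.256 percentage points. The last exon difference was -4.63 with equal numbers of peaks per line and -16.5 in the whole coding part, bp in promoter windows included. With the canonical TSS only, the promoter difference changed sign to 0.0547. The cause was not tested.

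Members separating the MYCN groups by the promoter window numbered 0 with a score of at least 100 and with equal numbers of peaks, and 1 with the midpoint, with the 200 bp overlap, with the window to 500 bp downstream and with the canonical TSS. By the gene body it was 2 without the promoter windows (ZNF846 beside ZNF208), and by the last exon 0 with a score of at least 100. With a score of at least 100 the gene body count was 1 as before, but the gene was ZNF573, in the single copy lines. With a line left out, the gene body count ranged from 1 to 3 (3 without CHP-902R or SK-N-AS, 2 without LAN-2 or SH-SY5Y) and the last exon count from 1 to 2 (2 without CHP-902R or N206). With fewer lines the share of all genes separating in the MNA lines rose as well, from 0.0942% to between 0.178% and 0.332% for the gene body and from 0.0843% to between 0.144% and 0.228% for the last exon. ZNF208 in the first and ZNF587 in the second remained in each of these.

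Alternatives added after the data were seen left out the region from 57.5 Mb or from 38 Mb on. Separating members were then 1 by the promoter window and 0 by the last exon in both, and before 38 Mb the last exon difference was -7.13 and the members' last exon minus promoter cover -0.482, which changed its sign. Among 108 numbers of lines of named genes, 81 were lower with a score of at least 100, 27 with equal numbers of peaks, 13 with the midpoint, 8 with the 200 bp overlap, and 0 were higher. The lists hold no read counts, so depth limits every statement on a missing peak, and 4 lines against 4 cannot pass an adjusted test. No paired analysis was possible because the labels give no numbers that link a line of one group to a line of the other.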
